A study of Mus musculus with 5 samples.

Results

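The 8 genes described here encode channel proteins of the retina: the connexins Gjd2, Gjc1, Gja10, Gja1, Gjb2 and Gjb6 and the pannexins Panx1 and Panx2. They were chosen by name among the 33635 genes of the count table, not by a cut on their measured values, and each had 1 row. Earlier results of these data were known when they were chosen. Retinal polyA RNA came from male wild-type C57BL/6J mice, a common inbred strain, at postnatal day (P) 42. In each mouse the right eye had worn a head-mounted diffuser goggle for 2 weeks from P28, which blurs the image and drives form-deprivation myopia (FDM), and the uncovered left eye of the same goggled animals was the control. The files held 2 FDM and 3 control libraries, and no animal without a goggle was analysed here. The eyes of mouse 1 gave FDM 1 and Control 1, those of mouse 3 gave FDM 3 and Control 3, and Control 2 has no partner. The second FDM library is called FDM 3 after its column in the count table, while its sample label numbers it 2.

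Gap junctions join the cytoplasm of neighbouring cells and let ions and small molecules pass. A connexin hexamer in one cell docks with a hexamer in the next. In the retina they carry signals between neurons: the protein of Gjd2 (Cx36) couples AII amacrine cells with each other and with ON cone bipolar cells, and also couples photoreceptors. Dopamine, adenosine and nitric oxide adjust this coupling with the light level, largely through phosphorylation of the channels, which RNA levels do not record. Variants near the human GJD2 gene are associated with refractive error. Pannexins have a similar fold and mostly act as single-membrane channels, for example for the release of ATP.

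The family signature is visible in the coding sequence. In the first extracellular loop of most connexins, 3 cysteines are spaced so that 6 and then 3 residues lie between them. These cysteines stabilise the docking of hemichannels. The 12 codons from the first to the last of these cysteines are shown for the 6 connexins among the members. They were read from GENCODE M21 transcripts (GRCm38) and cysteine codons are in capitals. The Gjd2 stretch lies at chr2:114011797-114011832 on the minus strand, that of Gjc1 at chr11:102800984-102801019 (minus) and that of Gja10 at chr4:32602188-32602223 (minus). The Gja1 stretch lies at chr10:56387706-56387741 (plus), that of Gjb2 at chr14:57100558-57100593 (minus) and that of Gjb6 at chr14:57124611-57124646 (minus).
Gjd2: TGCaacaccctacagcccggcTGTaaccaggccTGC
Gjc1: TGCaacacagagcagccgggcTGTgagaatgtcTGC
Gja10: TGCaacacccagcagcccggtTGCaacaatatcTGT
Gja1: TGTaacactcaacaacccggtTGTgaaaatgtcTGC
Gjb2: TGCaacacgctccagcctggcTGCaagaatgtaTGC
Gjb6: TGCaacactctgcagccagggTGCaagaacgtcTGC
Of the 36 bases, 26 or 27 in each of the other connexins were the same as in Gjd2. No such spacing of cysteines was found in the coding sequences of Panx1, Panx2 and Panx3, nor in that of Gje1, a connexin that is not a member. This likeness did not extend over a read: of the stretches of 50 bases in the annotated transcripts of each member, at most 0.283% (Gjd2) also occurred in a transcript of another gene. That share of Gjd2 was 8 stretches, all shared with 1 gene, A530058N18Rik, which overlaps it on the opposite strand. The library kit did not mark strand, so reads of the pair cannot be told apart there. Panx2 also has an antisense gene, 1810021B22Rik, with which it shared 0 such stretches.

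The libraries held 40599047 to 56534931 estimated counts, the authors' Salmon estimates summed to genes. Levels are given as counts per 1000000 (CPM) after TMM scaling of the library totals. Every library was rich in rod markers, which define retinal tissue and whose 7 genes summed to between 50210 and 63162 CPM. Other tissues stood out in single libraries. The 8 lens markers found summed to 1780 CPM in FDM 3 and to at most 16.2 CPM elsewhere. The 8 markers of the retinal pigment epithelium (RPE) summed to 271 CPM in Control 2 and 231 CPM in Control 3, against 59.1 to 78.7 CPM in the other libraries.

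To ask whether form deprivation altered these genes, FDM and control eyes were compared with edgeR's quasi-likelihood test over 17432 genes, those that exceeded 10 counts in 2 or more libraries. Of the 8 members 6 passed this filter, and Gjb2 and Gjb6 did not. At the study's threshold, an unadjusted p under 0.05, 0 of the 6 were called by edgeR, where 1.61% of all genes tested were, and 0 of them were called after Benjamini-Hochberg adjustment. DESeq2 also called 0 of the 6. In none of the 6 were FDM and control libraries fully apart, which 10.6% of all genes were. Among the 6, 4 had a log2 fold change below 0 and 2 above it. Their median was -0.06, beside a median of -0.01 over all genes tested.

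**Figure D1:**
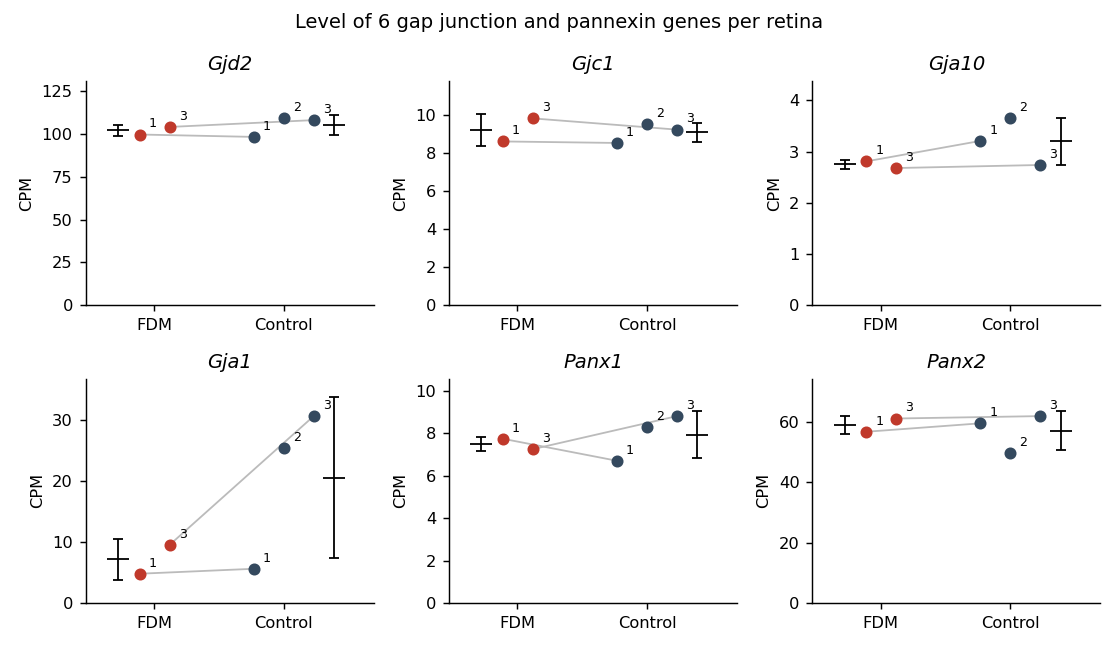
Level of the 6 tested members in CPM (vertical axis, from 0) in FDM (red) and control (dark) libraries, numbered as in the count table. Grey lines join the eyes of one mouse, and the black bars give the mean and SD of each group. Gja1 is the only one of the 6 in which controls lie far apart, with Control 1 at 5.59 CPM and Control 3 at 30.6 CPM.

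Gjd2 (ENSMUSG00000068615, chromosome 2 of GRCm38, 114009601 to 114013619) had nearly the same level in every eye. FDM 1 and FDM 3 held 4316 and 4994 estimated counts of it, and Controls 1, 2 and 3 held 3919, 6187 and 5117. Scaled, this is 99.6 and 104 CPM in the FDM eyes and 98.2, 109 and 108 CPM in the control eyes, so that both FDM eyes lay inside the range of the controls. The highest library exceeded the lowest 1.11-fold, and only 13.8% of the genes tested had a smaller SD of log2 CPM over the 5 libraries. The log2 fold change was -0.04 (standard error 0.09, 95% interval -0.25 to 0.16, unadjusted p = 0.626, adjusted p = 1.0 from edgeR's quasi-likelihood test). These are RNA levels of the whole retina, in which fewer cells of a type and less RNA per cell cannot be told apart. A list of 6 amacrine genes, among them the AII markers Dab1 and Prox1 but also Gad1 of GABAergic cells, had 0 calls in edgeR. It summed to 1140 and 1174 CPM in the FDM eyes and 1163 to 1236 CPM in the control eyes.

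Gjc1 (ENSMUSG00000034520, chromosome 11, 102799579 to 102819700) encodes Cx45, which ON cone bipolar cells and ganglion cells use. Its counts were 373 and 472 in FDM 1 and FDM 3 and 340, 542 and 438 in Controls 1, 2 and 3. The groups overlapped, at 9.21 ± 0.855 CPM in FDM eyes (SD, n = 2) and 9.08 ± 0.511 CPM in control eyes (SD, n = 3). From edgeR, the log2 fold change was 0.02 (standard error 0.12, 95% interval -0.25 to 0.29, adjusted p = 1.0).

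Gja10 (ENSMUSG00000051056, chromosome 4, 32596960 to 32602760) encodes Cx57, the connexin through which horizontal cells form their wide network. It had 122 and 129 counts in FDM 1 and FDM 3 and 128, 208 and 130 in Controls 1, 2 and 3. FDM eyes had 2.75 ± 0.0934 CPM (SD, n = 2) and control eyes 3.20 ± 0.456 CPM (SD, n = 3), and FDM 1 at 2.81 CPM lay above Control 3 at 2.74 CPM. The log2 fold change was -0.22 (standard error 0.17, 95% interval -0.63 to 0.19, unadjusted p = 0.243, adjusted p = 1.0 from edgeR's quasi-likelihood test). Control 2 carried much of it, since the value was -0.10 without that library. The 6 horizontal cell markers summed to 315 and 317 CPM in FDM eyes and 303 to 327 CPM in control eyes, with 0 calls. Slc32a1, Tpm3 and Calb1 gave most of this sum. Onecut1 and Onecut2 were, like Gja10, highest in Control 2, at 5.14 and 7.23 CPM. None of the other markers of the list was, and Lhx1 was highest in FDM 1 at 7.84 CPM.

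The pannexins did not separate the groups either. Panx2 (ENSMUSG00000058441, chromosome 15, 89059734 to 89073567), which is found mainly in neurons, had 2463 and 2942 counts in FDM 1 and FDM 3 and 2378, 2832 and 2942 counts in Controls 1, 2 and 3. FDM eyes had 59.0 ± 3.08 CPM (SD, n = 2) and control eyes 57.1 ± 6.51 CPM (SD, n = 3), with Control 2 lowest at 49.7 CPM. The log2 fold change was 0.05 (standard error 0.11, 95% interval -0.22 to 0.31, adjusted p = 1.0 from edgeR). Panx1 (ENSMUSG00000031934, chromosome 9, 15002128 to 15045478), an ATP release channel, had 336 and 349 counts in FDM 1 and FDM 3 and 268, 474 and 419 counts in Controls 1, 2 and 3. Both FDM eyes, at 7.75 and 7.26 CPM, lay between the controls at 6.71, 8.31 and 8.82 CPM. Its log2 fold change was -0.09 (standard error 0.14, 95% interval -0.42 to 0.25, adjusted p = 1.0 from edgeR). These changes turned sign under several other settings.

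The beta connexins were close to the limit of detection. Gjb2 (ENSMUSG00000046352, chromosome 14, 57098600 to 57104702) encodes Cx26, best known from the inner ear, and had 0 counts in both FDM libraries. The controls held 4, 3 and 10 counts, so that the groups did not overlap. Among the genes tested, 6.67% had every FDM library below every control and 3.97% had every one above. Gjb2 was not among them, as it failed the count filter, and no share was taken over genes with so few counts. The smallest level treated as detected was 3 counts. Set against it in each FDM library, Gjb2 in FDM eyes was at least 1.84-fold below the mean of the controls. This bound covers the counting error of the FDM libraries only, not that of the controls. Control 2, at 3 counts (0.0526 CPM), lay below the mean FDM limit of 0.0658 CPM, so no such bound holds against it. With no filter on counts, Gjb2 passed the unadjusted threshold (unadjusted p = 0.00788, adjusted p = 1.0 from edgeR's quasi-likelihood test), as 2.02% of the genes in that fit did. Gjb6 (ENSMUSG00000040055, chromosome 14, 57123303 to 57133611) encodes Cx30, a connexin of astrocytes, and neighbours Gjb2. It had 1 count in each FDM library, 0 in Control 1 and Control 2 and 2 in Control 3, too few for a fold.

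Gja1 was the member that varied most. It encodes Cx43, which joins astrocytes and is also made by the RPE and by vascular and connective tissue cells (ENSMUSG00000050953, chromosome 10, 56377330 to 56402513). FDM 1 and FDM 3 had 207 and 457 counts, and Controls 1, 2 and 3 had 223, 1441 and 1455. Scaled, these are 4.78 and 9.50 CPM in the FDM eyes and 5.59, 25.3 and 30.6 CPM in the control eyes. Controls 2 and 3 were high, and Control 1 lay between the FDM libraries. The highest library exceeded the lowest 6.42-fold, and 99.1% of the genes tested had a smaller SD of log2 CPM over the 5 libraries.

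FDM eyes had a mean of 7.14 ± 3.34 CPM of Gja1 (SD, n = 2), and control eyes 20.5 ± 13.2 CPM (SD, n = 3). On the log2 scale the fold change was -1.52 (standard error 0.66, 95% interval -3.06 to 0.02). In edgeR's quasi-likelihood test its unadjusted p was 0.0520, just short of the threshold, and its adjusted p was 1.0. The call turned on single libraries: the unadjusted p was 2.76e-04 without Control 1 (log2 fold change -1.96, adjusted p = 0.144 from edgeR) and 0.0353 without FDM 3 (log2 fold change -2.11, adjusted p = 1.0 from edgeR). Without these libraries, 5.42% and 1.12% of all genes were called. Gja1 did not pass without FDM 1 (unadjusted p = 0.183), Control 2 (0.111) or Control 3 (0.172) in edgeR, where its adjusted p was at least 0.998. It also did not pass in DESeq2 (unadjusted p = 0.0960) or in limma on the normalized counts (unadjusted p = 0.339, 1.62-fold). With the mouse as a block the log2 fold change was -1.15 (unadjusted p = 0.00139, adjusted p = 0.233 from edgeR), in a fit that called 7.23% of all genes. With the block numbered as in the sample labels it was -0.88 (adjusted p = 3.95e-05 from edgeR). That fit called 2.52% of all genes at an unadjusted p and 0.734% at an adjusted p. Both block fits rest on 2 pairs of eyes, because the control without a partner does not enter the difference within mice. Gja1 differed by -0.23 and -1.69 in the pairs of the first fit and by -0.23 and -1.41 in those by sample labels. The p-values of the block fits thus say little about the spread between mice. With upper quartile factors, under which 1.64% of all genes were called, the unadjusted p of Gja1 was 0.0466 (adjusted p = 1.0 from edgeR).

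**Figure D2:**
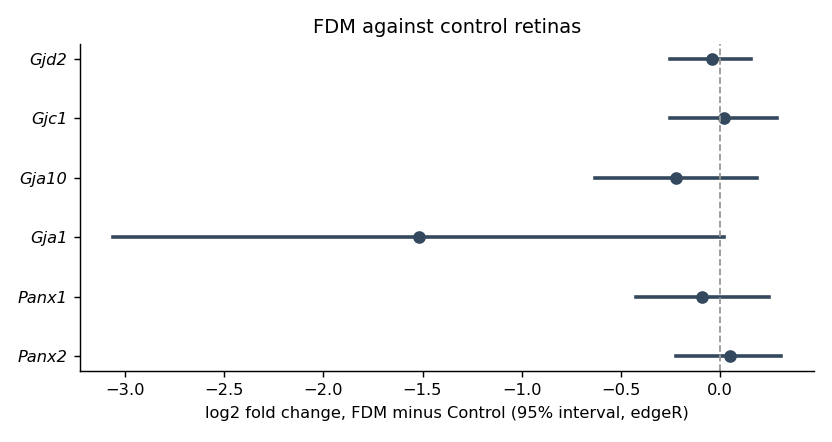
Log2 fold change of FDM against control eyes (horizontal axis) for the 6 tested members, as points with 95% intervals from edgeR; the dashed line marks no change. The interval of each member includes 0, and that of Gja1, from -3.06 to 0.02, is the widest.

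The size of the Gja1 difference depended on which of the deposited tables was read. In the normalized counts of the authors, Gja1 stood at 334 and 481 in FDM 1 and FDM 3 and at 269, 923 and 1109 in Controls 1, 2 and 3. The control mean exceeded the FDM mean 1.88-fold there, against 2.87-fold in CPM. The normalized table divides each gene in each library by a factor of its own. Relative to the median factor of the library, the factor of Gja1 was 0.672 and 0.927 in FDM 1 and FDM 3 and 0.963, 1.28 and 1.30 in Controls 1, 2 and 3. The factor was thus high in the libraries with many Gja1 counts and lowest in the library with fewest. It spanned 1.93-fold, more than in 99.7% of the 14152 genes that exceeded 50 counts throughout, whose median span was 1.06-fold.

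Such factors arise when counts are corrected for the average length of the transcripts in a library, as tximport does, which the paper names for its meta-analysis. Whether the deposited table was made so is not given in the sources used here. GENCODE M21 lists 8 transcripts of Gja1, from 180 to 3889 bases, and 1 of Gjd2. The factor of Gjd2 spanned only 1.01-fold and that of Gja10 1.02-fold. Panx1, with 4 annotated transcripts from 357 to 5732 bases, spanned 1.61-fold, more than in 99.2% of genes, lowest in Control 3 at 0.776 and highest in Control 2 at 1.25. With these factors as offsets in edgeR, Gja1 had a log2 fold change of -0.91 (unadjusted p = 0.123, adjusted p = 1.0 from edgeR's quasi-likelihood test).

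**Figure D3:**
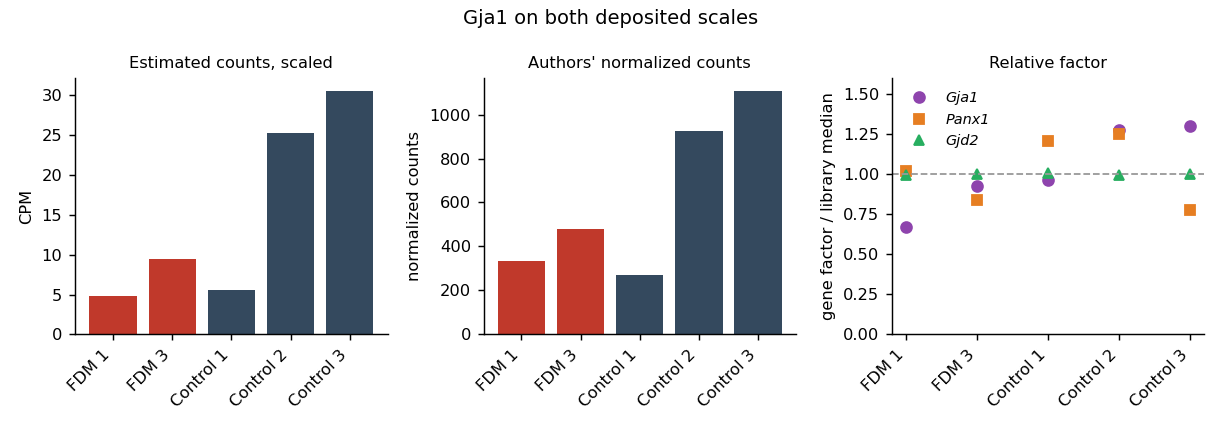
Gja1 in each library as CPM (left) and as the normalized counts of the authors (middle), with bars from 0, and the relative factor between the tables for Gja1, Panx1 and Gjd2 (right; 1 is the median gene of a library). The factor of Gja1 runs from 0.672 to 1.30, while that of Gjd2 stays at about 1.

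The summed markers of the RPE, pigment cells and fibroblasts were, like Gja1, highest in Control 2 and Control 3. The lens markers, high in FDM 3, were not. The 7 Müller glia markers summed to between 4203 and 4623 CPM, and 0 of them were called. Their sum had the same order of libraries as Gja1. Dkk3 and Apoe shared this order, while Glul, Rlbp1, Slc1a3, Aqp4 and Kcnj10 did not. Glul, the most abundant of the list, was lowest in Control 2 at 2391 CPM. The 6 astrocyte markers summed to between 511 CPM in Control 2 and 587 CPM in Control 3, with 0 calls. Aldoc gave most of this sum, at 445 CPM in Control 2 and 527 CPM in Control 3. Gfap was highest in Control 1 (32.6 CPM) and Igf1 in Control 2 (25.0 CPM). The 7 endothelial markers summed to between 317 CPM in Control 2 and 362 CPM in FDM 1, also with 0 calls. The RPE list spanned 4.58-fold between libraries, and 7 of its 8 genes fell in FDM eyes at an unadjusted p under 0.05 (1.16% of all genes were called lower). Control 2 and Control 3 were the highest libraries for both the RPE list and Gja1, but the orders were not the same. Control 2 was highest for the RPE list and Control 3 for Gja1. FDM 3 was lowest for the RPE list, while for Gja1 it lay above Control 1 and FDM 1. The 5 pigment cell markers summed to 19.2 and 24.9 CPM in FDM 1 and FDM 3 and to 16.2, 41.5 and 131 CPM in Controls 1, 2 and 3. The 5 fibroblast markers summed to 7.94 and 12.5 CPM in FDM 1 and FDM 3. In Controls 1, 2 and 3 they summed to 9.52, 14.9 and 27.8 CPM. This sum had the order of libraries seen in Gja1, as did Dcn and Col1a2, but Lum, Col1a1 and Col3a1 did not. Col3a1 stood at 2.60 CPM in FDM 3 and 1.46 CPM in Control 2. The 5 markers of ciliary body and iris ranged from 66.8 CPM in FDM 1 to 115 CPM in Control 2, while the 6 skeletal muscle markers were high in Control 3 alone, at 59.5 CPM against at most 10.7 CPM elsewhere. In edgeR none of the pigment cell, fibroblast, ciliary body and iris or skeletal muscle markers was called (0 of 5, 4, 4 and 4 tested). With the mouse as a block, 3, 3, 1 and 4 of them were called lower, as were 639 of all 17432 genes tested. Gja1 passed the unadjusted threshold in this fit. The fit also called 7 RPE markers lower, 1 Müller glia marker higher and 1 lower, and 0 astrocyte and endothelial markers. Of the lists of retinal neurons named earlier, 2 rod markers and 1 amacrine gene were called lower and 1 horizontal cell marker higher. No marker of these lists was without counts over the 5 libraries. The part of these tissues in the Gja1 difference was not tested.

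**Figure D4:**
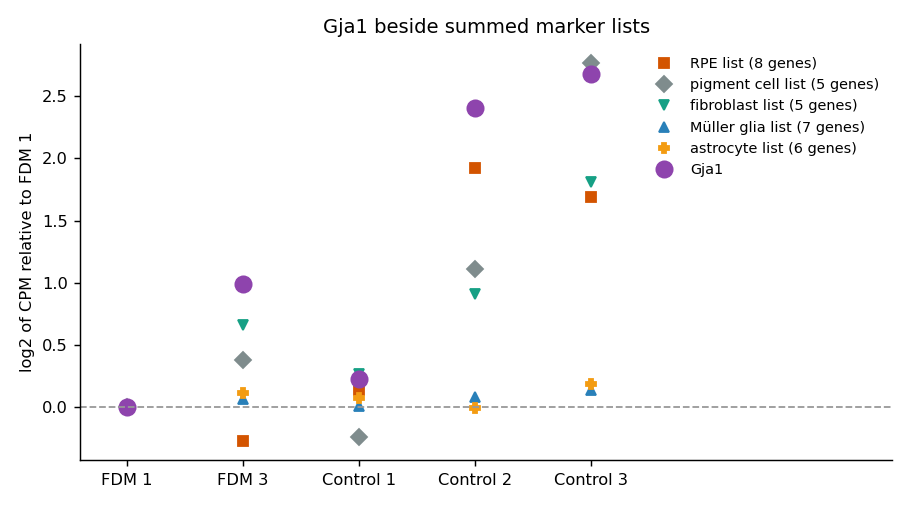
Gja1 and the summed CPM of 5 marker lists in each library, as log2 relative to FDM 1 (vertical axis). Gja1 and the RPE, pigment cell and fibroblast lists are highest in Control 2 and Control 3, while the Müller glia and astrocyte lists stay close to 0.

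Per length, Gjd2 was the most abundant of the 8 genes. Levels were divided by the length of all annotated exons of a gene, in CPM per kilobase. These levels describe the genes and were not tested against each other. Gjd2 had a median of 36.1 over the 5 libraries (34.1 to 37.7), followed by Panx2 at 16.5 (13.8 to 17.2). Gjc1 came next at 1.84 (1.70 to 1.96), Gja10 at 1.31 (1.24 to 1.69), Panx1 at 1.29 (1.11 to 1.46) and Gja1 at 0.926 (0.466 to 2.99). Gjb2 and Gjb6 were last, at medians of 0.0219 and 0.00778. The ranges of Gja10 and Panx1, of Panx1 and Gja1 and of Gjb2 and Gjb6 overlapped, so these neighbours were not separated. The wide range of Gja1 also took in that of Gjc1: in Control 2 and Control 3 Gja1 stood at 2.46 and 2.99, above the highest level of Gjc1. The place of Gja1 hung on the length used, as its exons together cover 10257 bases and its longest transcript 3889. With the longest transcript of each gene it had a median of 2.44 CPM per kilobase (1.23 to 7.88) and came next after Gjc1 at 2.70 (2.50 to 2.88), with overlapping ranges.

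**Figure D5:**
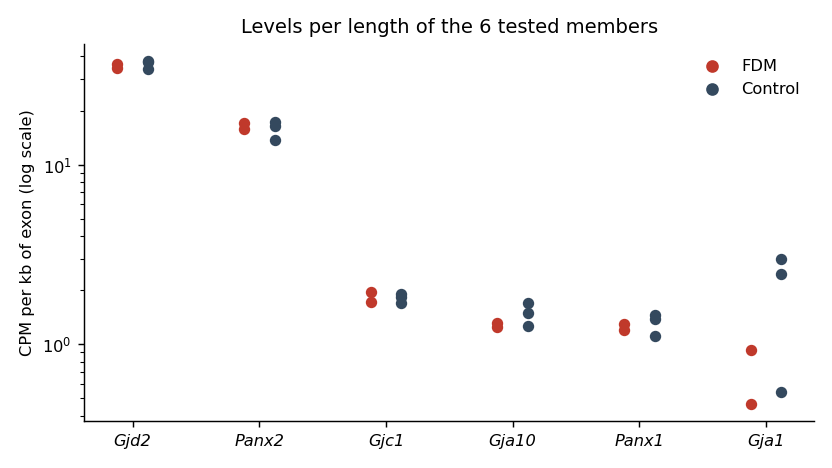
Level per kilobase of annotated exon (CPM per kb, log axis) of the 6 tested members in FDM (red) and control (dark) libraries, ordered by their median. Gjd2 and Panx2 lie above the rest, at medians of 36.1 and 16.5, and Gja1 spreads from 0.466 to 2.99.

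Both eyes of a mouse could be compared in 2 animals. In mouse 1 the log2 difference of the FDM from the control eye was 0.02 for Gjd2, and in mouse 3 it was -0.05, so that the direction was not shared. For Gjc1 the differences were 0.01 and 0.09, and for Gja10 -0.19 and -0.03. Panx1 went opposite ways, at 0.21 and -0.28, and Panx2 differed by -0.07 and -0.02. Gja1 differed by -0.23 in mouse 1 and by -1.69, or 3.22-fold, in mouse 3. The median absolute difference over all genes was 0.10 in each mouse, and the 95th percentile was 0.68 in mouse 3, which Gja1 alone among the 6 exceeded. The FDM eye was the lower one in both mice for 3 of the 6 members (Gja10, Gja1 and Panx2), where 30.4% of all genes showed this. With FDM 3 paired to Control 2, as its sample label numbers it, Panx2 differed by 0.30 and the count was 2. In the normalized counts, the Gja1 difference in mouse 1 was 0.31, in the other direction.

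Among the other 15 connexins and pannexins of the table, 6 passed the count filter, of which 1 was called higher in FDM eyes and 0 lower by edgeR. Over all genes tested, 0.453% were called higher. Gja3, which encodes a connexin of lens fibres, did not pass the filter. It had 71 counts in FDM 3, the library rich in lens markers, and at most 2 in any other library. FDM 3 thus stood alone, with FDM 1 at 1 count in the range of the controls. The 7 lens markers tested were called higher at an unadjusted p under 0.05 in edgeR through FDM 3 alone: 0 were called higher without it, and FDM 1, at a sum of 2.77 CPM, lay among the controls. The part of lens tissue in the Gja3 counts was not tested. Panx3 had 1 to 3 counts per library.

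The partners that anchor and regulate gap junctions hardly differed between the groups. A list of 34 symbols held scaffolds of the tight junction protein family, calmodulins and CaM kinases, protein kinase A subunits and receptors for dopamine and adenosine. Of these, 31 were found and tested and 0 were called in edgeR, with log2 fold changes from -0.11 to 0.13. Among the most abundant were Calm2 and Calm3, which encode the calcium sensor calmodulin, the ubiquitin ligase gene Nedd4 and the kinase gene Camk2d. Calm3 stood at 530 ± 24.4 CPM in FDM eyes (SD, n = 2), and control eyes had 544 ± 43.9 CPM (SD, n = 3). Calm2, Calm3, Nedd4 and Camk2d had log2 fold changes of -0.10, -0.04, 0.00 and 0.02. With the mouse as a block, Tjp1, whose product ZO-1 binds connexin tails, and Mpdz, another PDZ scaffold, were called higher, both with a log2 fold change of 0.14 (adjusted p = 0.667 and 0.654 from edgeR), in a fit that called 3.57% of all genes higher.

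The genes most like a member were found by the root mean square distance between log2 CPM profiles over the 5 libraries, each centred on its own mean, among 14815 genes with a mean of at least 1 CPM. The genes nearest to Gjd2 were Abcf3 at 0.004, Hspa9 at 0.008 and Prkar1a at 0.009, but 5289 genes lay within 0.1 of Gjd2. Gja1 had 1 gene within 0.1, Fmod at 0.096, followed by Bmp2 at 0.255 and Bace2 at 0.272. Fmod encodes fibromodulin, a proteoglycan of connective tissue, and had 130 and 318 counts in FDM 1 and FDM 3 and 168, 971 and 921 in Controls 1, 2 and 3. As in Gja1, Controls 2 and 3 were high and Control 1 lay between the FDM libraries.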

How the data were processed

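Retinal RNA of 2 FDM and 3 control eyes was analysed. RNA was polyA-enriched and sequenced as pairs of 50-base reads. The authors trimmed the reads with Trimmomatic 0.39, quantified transcripts with Salmon 1.10.1 on GRCm38 (tools and build per the submitters' processing notes), and deposited estimated counts per gene as whole numbers. They also deposited a normalized signal, counts divided in DESeq2 by a factor of each gene and library. Duplicated reads had led them to drop another FDM library. Counting error and, with 2 FDM eyes, the spread between eyes limit precision.

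From the estimated counts, edgeR 4.0.16 in R 4.3.3 was used with TMM factors and no covariate, for genes exceeding 10 counts in 2 or more libraries. Standard errors are the log2 fold change over the square root of F, and 95% intervals use the t distribution with the fit's total degrees of freedom. Log2 CPM used a prior count of 2. DESeq2 1.42.0, limma 3.58.1 (normalized signal, log2 after adding 1), other scalings and filters, blocks and left-out libraries were the alternatives, and the code was tested on simulated counts. Same-mouse pairing comes from the study design and the paper's numbers. Across genes, deviations from the group means correlated at 0.247 for mouse 1 and 0.0998 for mouse 3. For the pairing by sample labels the value was 0.163, above that of mouse 3. With 2 FDM libraries, their deviations are equal and opposite, so these correlations are not independent and cannot decide the pairing. Coordinates are from GENCODE M21 (GRCm38), in which 33585 identifiers were found. The named genes were the 8 members, the called or 5 most abundant genes of the gap junction lists, and the 3 nearest to Gjd2 and to the most variable member. Naming Gja3, Panx3, Tjp1 and Mpdz was decided with their values in view. Some genes that this rule names are not reported here. The members and lists were chosen with earlier results of these data known.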

Additional observations from a re-analysis of the deposited data

How the results depend on the processing

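Of 78 member fold changes recomputed under 13 alternatives, 63 kept their direction and their side of the threshold. For Gjd2 and Gja10 all did, from -0.09 to -0.01 and from -0.32 to -0.10. Gja1 stayed below 0, from -2.11 to -0.70, and passed the threshold under 6 alternatives, including upper quartile factors (unadjusted p = 0.0466 from edgeR's quasi-likelihood test, adjusted p = 1.0). The sign turned for Panx1 with the block by sample labels (0.00), with the deposited factors as offsets (0.06) and in limma (0.12), and for Panx2 with the mouse as a block (-0.04). Leaving out each library gave -0.08 to 0.11 for Gjc1, -0.19 to 0.00 for Panx1 and -0.03 to 0.12 for Panx2.

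The number of members called, 0, became 1 with either block and with upper quartile factors and 2 with no count filter (Gja1 and Gjb2), and ranged from 0 to 1 over fits that each lacked a library. Over all genes, the 281 calls became 1261 with the mouse as a block, 439 with the block by sample labels, 172 in DESeq2, 498 without the filter and 500 in limma, and 146 to 944 with a library left out. Of the other gap junction genes, 1 was called, and 3 with the mouse as a block, 2 without the filter (Gja3 among them), 0 in limma and 0 to 1 with a library left out. Of the marker genes 14 were called, and 32 with the mouse as a block, 24 without the filter, 3 in limma and 8 to 29 with a library left out. The FDM eye was lower in both mice for 3 members in CPM and for 1, Gja10, in the normalized counts. The causes were not tested. Beyond Gja1, neither block changed the call of a tested member. Where 1 FDM library remained, it was assumed to vary like the controls. By library totals before TMM scaling, the limit of 3 counts lay between 0.0531 and 0.0739 CPM. At this depth Gjb2 gave only a bound and Gjb6 no fold.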
